A study of Homo sapiens with 8 samples.

Results

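The genes of the NRF2 oxidative stress response were described in RNA-Seq data from cells labelled Caco-2 that had been transfected with empty vector or with SIGLEC12. The members were the regulators NFE2L2 and KEAP1 and the target genes NQO1, HMOX1, GCLC, GCLM, TXNRD1, SRXN1 and OSGIN1. They were found by gene symbol among the 63816 gene entries of the expression table, where each of the 9 symbols stood on 1 entry. All 9 reached 1 TPM (a transcript abundance corrected for transcript length and scaled to the same total in every sample) in at least 4 samples, as did 15590 entries in total.

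Caco-2 is an established line from a human colorectal adenocarcinoma, described by the study as not expressing Siglec-XII. There were 4 samples with the empty pcDNA3.1 vector and 4 with the same vector carrying full-length SIGLEC12, referred to as empty vector and Siglec-XII. Both groups were transfected with linearized plasmid and then kept under the antibiotic G418, and stable clones were selected, so the vector backbone and the drug selection were shared. Since the groups were transfected and selected separately, an effect of Siglec-XII and one of deriving distinct cell populations cannot be told apart. The description of the series counts fewer cultures than the samples listed, and the methods speak of technical replicate libraries. The SDs and p-values therefore cover the spread between these libraries, which may be technical.

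The mean log2(TPM + 1) of SIGLEC12 was 0.11 ± 0.05 (SD, n = 4) in the control group, and Siglec-XII samples reached 10.70 ± 0.06 (SD, n = 4), which fits the labels of all 8 samples. The table gives no read count, and the labels give 25000000 to 40000000 reads per sample. Per sample, 15513 to 15934 entries were at 1 TPM or more. The markers of the labelled tissue were largely absent. Of 22 colon epithelium markers, 2 passed the filter, CDX1 and CDX2, while KRT20, SI, FABP1, PHGR1 and TFF3 were listed at 0 in every sample and VIL1 had a highest log2 level of 1.20. Of 22 genes listed as trophoblast markers, 16 passed, among them GATA3 at 8.64 and 8.49 and HSD3B1 at 8.43 and 8.43 (mean log2 level, control group first). ELF5, CGB3, CGB5, CGB8, CYP11A1 and LEP did not pass. CGA, ERVW-1, ERVFRD-1, PSG1 and PSG3 passed with mean log2 levels of at most 1.43 in either group. The summed level of the colon list ran from 164 to 187 TPM with the empty vector and from 191 to 217 TPM with Siglec-XII. That of the trophoblast list ran from 1614 to 1802 TPM and from 1690 to 1791 TPM. The general epithelial list (EPCAM, KRT8, KRT18, CDH1) ran from 7270 to 8262 TPM and from 8768 to 9067 TPM. Fibroblast genes ran from 70.7 to 86.8 TPM and from 83.2 to 89.1 TPM, while leukocyte genes summed to at most 3.71 TPM and hepatocyte genes to at most 1.94 TPM. The colon and general epithelial sums were higher in every Siglec-XII sample than in any empty vector sample. Taken singly, 9.17% of all tested entries were apart in the same way. CDX1 and CDX2 differed by 0.17 and 0.23 on the log2 scale (limma adjusted p = 0.202 and 0.252). Among the general epithelial genes the lowest limma adjusted p was 0.0860, for KRT8. The part of these sums in the results given here was not tested.

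NRF2 is the main transcription factor of the response to oxidants and electrophiles. In unstressed cells KEAP1 binds NRF2 and presents it to a CUL3 ubiquitin ligase for degradation. Oxidants modify cysteines of KEAP1, NRF2 then accumulates, pairs with a small MAF protein and binds antioxidant response elements in its target genes, while BACH1 occupies many of the same elements as a repressor. Regulation of NRF2 is thus largely at the level of protein, and its activity is usually read from its target transcripts. In intestinal epithelium the pathway handles reactive compounds from food, microbes and inflammation, and in many carcinomas it is persistently active.

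Promoter sequences are shown because the core of the antioxidant response element can be read in them beside the levels of the same genes. The letters TGACNNNGC (N is any base, read as GCNNNGTCA on the opposite strand) were searched on both strands of the 250 bases before each start site in the RefSeq promoters of GRCh38.p14, a build other than the GRCh37 used for the expression table. The motif shares its first 4 letters with the AP-1 motif TGACTCA, and a TGACTCA followed by GC would match both. Promoters of 8 members were matched by symbol, all but HMOX1. Of their 11 start sites, 4 held a match, which belonged to 3 genes, GCLM, KEAP1 and TXNRD1. These sequences are written in the direction of transcription and end at the base before the start site, with the matches in capitals.
GCLM, chr1:93909431-93909680, minus strand: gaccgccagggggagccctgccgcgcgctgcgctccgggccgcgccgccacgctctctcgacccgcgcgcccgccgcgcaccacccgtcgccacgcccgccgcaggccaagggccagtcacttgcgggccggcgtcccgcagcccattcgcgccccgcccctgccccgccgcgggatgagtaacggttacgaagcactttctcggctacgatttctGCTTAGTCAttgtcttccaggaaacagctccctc
KEAP1, chr19:10502772-10503021, minus strand: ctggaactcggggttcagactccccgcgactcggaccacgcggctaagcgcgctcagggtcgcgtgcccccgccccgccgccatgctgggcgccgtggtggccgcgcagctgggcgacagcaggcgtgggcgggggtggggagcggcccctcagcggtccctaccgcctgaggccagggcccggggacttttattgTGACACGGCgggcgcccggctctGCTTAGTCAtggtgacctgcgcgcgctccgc
TXNRD1, upstream start, chr12:104215529-104215778, plus strand: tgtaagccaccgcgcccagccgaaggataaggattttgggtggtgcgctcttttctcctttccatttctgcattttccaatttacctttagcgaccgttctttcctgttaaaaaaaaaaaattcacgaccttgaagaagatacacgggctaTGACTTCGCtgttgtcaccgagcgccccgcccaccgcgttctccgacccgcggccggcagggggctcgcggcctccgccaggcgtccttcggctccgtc
TXNRD1, downstream start, chr12:104286782-104287031, plus strand: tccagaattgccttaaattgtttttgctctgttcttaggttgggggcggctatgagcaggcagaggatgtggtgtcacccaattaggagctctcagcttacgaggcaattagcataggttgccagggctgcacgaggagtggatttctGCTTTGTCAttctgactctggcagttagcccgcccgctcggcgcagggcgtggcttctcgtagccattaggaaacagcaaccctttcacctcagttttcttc
GCLM and KEAP1 carried the same 9 letters, GCTTAGTCA, at 25 and 22 bases before the start site, and KEAP1 held a second match at 45 bases. The matches of TXNRD1 stood 90 bases before its upstream start and 93 bases before its downstream start. None of these matches overlapped a TGACTCA on either strand, and among the members only the window of OSGIN1 held one. For comparison, 10.9% of 35116 promoter entries and 13.2% of 27305 genes held a match in the same window, and among 79 other genes of the pathway lists described further on it was 21 (26.6%). A match is a description of the letters, and elements farther from the start site were not searched.

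All 9 genes were expressed, over a range from 2.27 TPM in the lowest sample of OSGIN1 to 170 TPM in the highest sample of TXNRD1. Mean levels over the 8 samples were 150 TPM for TXNRD1, 90.8 for NQO1, 70.9 for HMOX1 and 62.4 for NFE2L2, followed by 32.7 for SRXN1, 31.5 for GCLC, 26.6 for KEAP1, 22.0 for GCLM and 4.41 for OSGIN1. TXNRD1 was above NQO1 in all samples, NFE2L2 above SRXN1, and GCLM above OSGIN1. The ranges of the other neighbours in this order overlapped over the samples. Compared within each sample, NQO1 was still above HMOX1 and KEAP1 above GCLM throughout. The order of the remaining neighbours changed from sample to sample. NFE2L2 and KEAP1 lie on chromosomes 2 (178083395 to 178257484, minus strand) and 19 (10596801 to 10614234, minus strand) of GRCh37, and the values are per gene, not per exon or isoform.

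The regulators came first. NFE2L2, the gene for NRF2, was at a log2(TPM + 1) of 5.92, 6.11, 5.90 and 5.89 in empty vector replicates 1 to 4 and at 6.10, 5.90, 6.14 and 5.91 in Siglec-XII replicates 1 to 4. High and low values occurred in both groups and the groups overlapped throughout. The log2 difference, Siglec-XII minus empty vector, was 0.06 ± 0.08 (SE, limma adjusted p = 0.747), with a 95% interval from -0.11 to 0.23, or 0.925 to 1.17 times the empty vector level. KEAP1, the substrate adaptor that holds NRF2 low, was at 4.73, 4.79, 4.65 and 4.61 with the empty vector and at 4.88, 4.93, 4.88 and 4.79 with Siglec-XII. The highest empty vector sample, replicate 2, lay just above the lowest Siglec-XII sample, replicate 4, and otherwise the groups were apart. The difference of 0.18 ± 0.06 (SE) had an adjusted p of 0.210 (unadjusted 0.0173).

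HMOX1 encodes heme oxygenase 1, the inducible enzyme that opens heme to biliverdin, iron and carbon monoxide. On chromosome 22 (35776354 to 35790207, plus strand, GRCh37), it was at 5.92, 6.18, 5.86 and 5.89 with the empty vector and at 6.30, 6.34, 6.24 and 6.49 with Siglec-XII. Every Siglec-XII sample was above every empty vector sample. Empty vector replicate 2 came closest, just under the lowest of them. In TPM the group means were 61.5 ± 6.70 and 80.2 ± 6.06 (SD, n = 4 each). The log2 difference was 0.38 ± 0.08 (SE), a fold of 1.30 with a 95% interval from 1.15 to 1.48, and it did not pass the adjustment over all entries (limma adjusted p = 0.0891, unadjusted 0.00104). Across 18 alternatives the limma adjusted p took values between 0.0218 and 0.209, and it passed 0.05 only without empty vector replicate 2, where the difference was 0.45. HMOX2, the constitutive isoenzyme, listed on 2 entries with identical values, was at 4.84 ± 0.09 and 4.89 ± 0.04 (SD, n = 4), with a difference of 0.06 (adjusted p = 0.668) that turned negative under 2 scalings. How reads were shared between the 2 entries is not known, so this level may not be that of the whole gene.

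TXNRD1 and SRXN1 serve the thioredoxin system. TXNRD1, the cytosolic selenoprotein that reduces thioredoxin (chromosome 12, 104609557 to 104744085, plus strand), was at 7.04, 7.32, 6.99 and 7.05 with the empty vector and at 7.41, 7.30, 7.36 and 7.34 with Siglec-XII. Its Siglec-XII samples were tightly grouped, and empty vector replicate 2 alone reached into their range. The difference was 0.25 ± 0.07 (SE, fold 1.19, adjusted p = 0.148, unadjusted 0.00624). Without empty vector replicate 2 it was 0.33 with an adjusted p of 0.0211, and the other 17 alternatives left it above 0.05. SRXN1, sulfiredoxin, which restores overoxidized peroxiredoxins (chromosome 20, 627259 to 633844, minus strand), was at 4.84, 5.24, 4.92 and 5.03 with the empty vector and at 5.10, 5.11, 5.04 and 5.28 with Siglec-XII. The groups overlapped through the same empty vector sample, and the difference was 0.12 ± 0.09 (SE, adjusted p = 0.546).

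GCLC and GCLM encode the catalytic and the modifier subunit of glutamate-cysteine ligase, the first and limiting step of glutathione synthesis. GCLC (chromosome 6, 53362139 to 53481768, minus strand) was at 4.81, 5.08, 5.08 and 4.99 with the empty vector and at 5.14, 4.91, 5.06 and 5.06 with Siglec-XII. The difference was 0.05 ± 0.08 (SE, adjusted p = 0.786), close to that of NFE2L2, with a 95% interval from -0.12 to 0.22. GCLM (chromosome 1, 94350755 to 94375012, minus strand) was at 4.24, 4.72, 4.56 and 4.22 with the empty vector and at 4.49, 4.63, 4.58 and 4.64 with Siglec-XII. Its empty vector samples split into a low and a high pair that spanned the whole Siglec-XII range, and the difference was 0.15 ± 0.11 (SE, adjusted p = 0.546).

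NQO1, the quinone reductase that is the classical NRF2 target (chromosome 16, 69740899 to 69760571, minus strand), was at 6.27, 6.64, 6.32 and 6.50 with the empty vector and at 6.60, 6.50, 6.55 and 6.73 with Siglec-XII. Empty vector replicate 2 exceeded 3 of the 4 Siglec-XII samples, and the difference was 0.16 ± 0.09 (SE, adjusted p = 0.370). OSGIN1, an oxidative stress induced growth inhibitor (chromosome 16, 83964916 to 83999937, plus strand), was the least expressed member and the most variable. It was at 1.71, 2.72, 2.31 and 2.27 with the empty vector and at 2.42, 2.50, 2.51 and 2.80 with Siglec-XII, so that the empty vector group held both its lowest and its second highest value. Its difference of 0.30 ± 0.20 (SE) had an adjusted p of 0.471 and a 95% interval from -0.14 to 0.75, which spans the difference of HMOX1. Without empty vector replicate 2 the OSGIN1 difference was 0.46 ± 0.17 (SE, limma adjusted p = 0.203). Without empty vector replicate 1 it was 0.12 ± 0.15 (SE, limma adjusted p = 0.768).

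**Figure D1:**
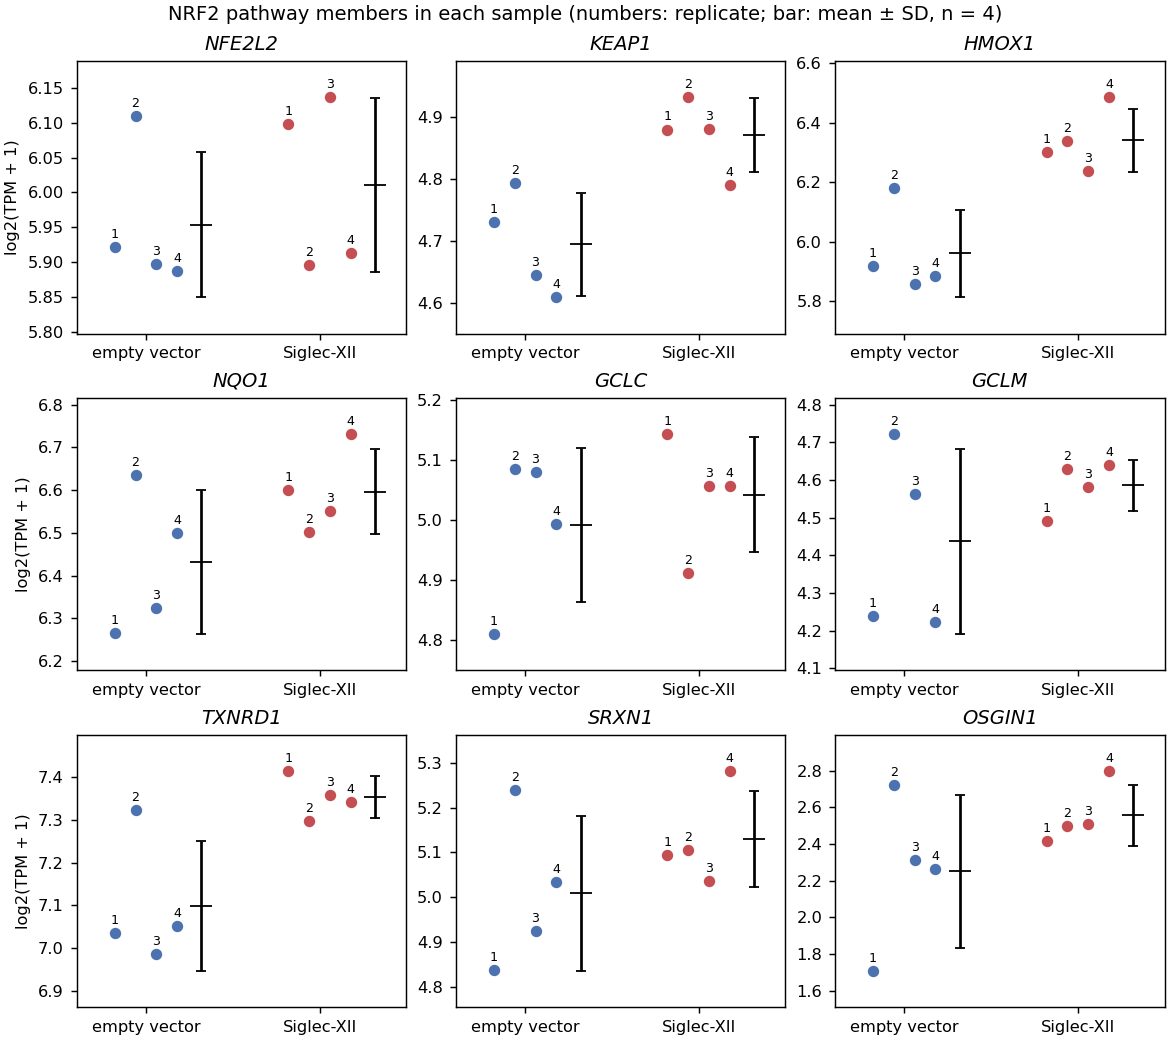
Level of each member, log2(TPM + 1), in the 4 empty vector (blue) and 4 Siglec-XII (red) samples, with the replicate number above each point and the mean ± SD (n = 4) as black bars. The vertical scales differ between genes. HMOX1 is the member whose groups do not overlap, and empty vector replicate 2 is the highest blue point in all 9 panels.

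The mean was higher with Siglec-XII for 9 of the 9 members, but higher means were common across the table. Of all 15590 tested entries, 68.1% had a higher mean with Siglec-XII, and the median log2 difference was 0.16 over the members against 0.07 over all entries. NFE2L2 and GCLC lay below that overall median. When samples were quantile normalized or set to equal upper quartiles, 7 of 9 were higher, with NFE2L2 and GCLC turning to the other side of 0. With either scaling the median was then 0.10 over the members and 0.01 over all entries. The share of all entries that were higher was not counted under these scalings. At an adjusted p under 0.05 there were 0 of 9 members in limma, against 0.648% of all entries (101, of which 53, or 0.34%, were higher and 48, or 0.308%, lower). That split depended on the scaling, with 28 higher and 58 lower after quantile normalization, 24 and 58 with equal upper quartiles, and 25 and 48 with the mitochondrial and most abundant genes left out. HMOX1, TXNRD1 and KEAP1, 3 of the 9, had an unadjusted p of at most 0.05, all higher, against 13.9% of entries that were higher by this rule. This count was 2 of 9 after quantile normalization, with equal upper quartiles, and with the mitochondrial and most abundant genes left out. In the same order, 12.6%, 12.9% and 13.2% of all entries passed in either direction. Groups that did not overlap with Siglec-XII above were found for 1 of 9 members and for 9.17% of all entries, and with Siglec-XII below for 0 of 9 and 1.68%.

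**Figure D2:**
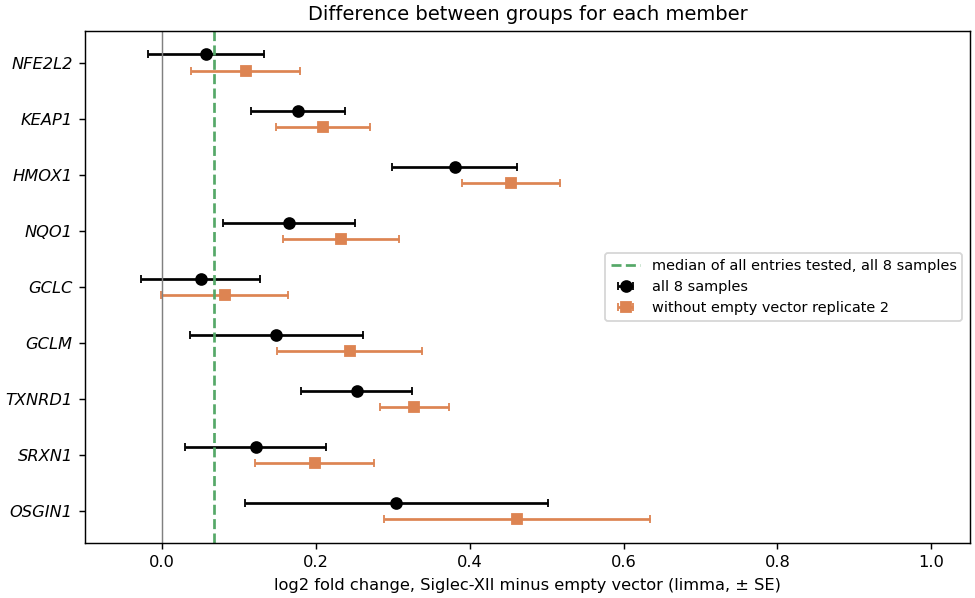
Log2 fold change of each member, Siglec-XII minus empty vector, with its SE from limma, over all 8 samples (black circles) and without empty vector replicate 2 (orange squares). The dashed line is the median of all entries tested, 0.07. Every orange square lies to the right of its black circle. This follows from the choice of sample, since replicate 2 was the highest empty vector sample for every member.

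Empty vector replicate 2 lay above the other 3 samples of its group in these genes, by margins that differed. For GCLC it was at 5.084 against 5.080 in replicate 3. Replicate 2 had the highest empty vector level for 9 of 9 members. It was the highest of the 4 for 34.9% of all tested entries (replicates 1, 3 and 4 for 16.5%, 18.7% and 29.9%). Averaged over the members, the level relative to each gene's mean over 8 samples was 0.13 in that sample and -0.24, -0.12 and -0.13 in empty vector replicates 1, 3 and 4 (log2 scale). The Siglec-XII samples were at 0.09, 0.05, 0.08 and 0.15, so that empty vector replicate 2 lay within their range. The same deviation taken as the median of all tested entries was only 0.01 in empty vector replicate 2 and -0.09, -0.04 and -0.01 in the other 3. Mitochondrially encoded genes took 8.49% of its TPM, between the 7.92% and 11.2% of the group's lowest and highest samples. In the Siglec-XII samples they took 6.67% to 9.97%. With these and the 100 most abundant genes left out together, 9 of 9 members were higher, with a median of 0.12 against 0.03 over all entries. The part of the mitochondrial genes alone was not tested. Empty vector replicate 1 had the highest mitochondrial share. It was the lowest of its group for 4 members, a count with no share over all entries to set beside it. The median deviation of all tested entries was also lowest in that sample. The SD was larger with the empty vector than with Siglec-XII for 8 of 9 members, against 55.4% of all entries, and for 5 of 9 with replicate 2 left out. Without this sample, 2 of 9 members, HMOX1 and TXNRD1, passed an adjusted p of 0.05, and 7 of 9 had an unadjusted p of 0.05 or less, where 1.02% and 19.4% of all entries did. Each sample was left out in turn and this one is singled out for its values in these genes, so these counts describe how much the result rests on it.

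**Figure D3:**
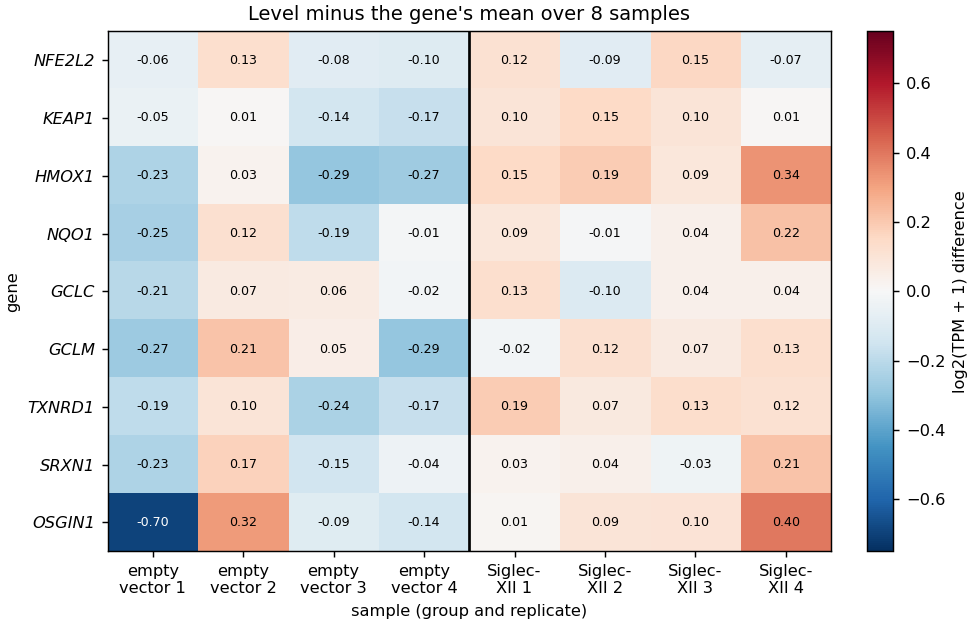
Level of each member in each sample minus that gene's mean over the 8 samples, on the log2(TPM + 1) scale, with empty vector samples left and Siglec-XII samples right of the black line. The column of empty vector replicate 2 has 9 values above 0. Those of replicates 1 and 4 are all below 0, and that of replicate 3 is mostly below 0.

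Ratios within a sample do not depend on how samples are scaled. The log2 ratio of NFE2L2 to KEAP1, factor to inhibitor, was 1.22, 1.35, 1.29 and 1.31 in the empty vector samples and 1.25, 0.99, 1.29 and 1.15 in the Siglec-XII samples. It was lower on average with Siglec-XII, by -0.13, with overlapping groups (two-sided exact permutation p = 0.114, adjusted over 2 ratios 0.229). The log2 ratio of GCLC to GCLM was 0.58 ± 0.18 (SD, n = 4) and 0.47 ± 0.16 (SD, n = 4), a difference of -0.10 (exact permutation p = 0.400, adjusted 0.400). With 4 samples against 4 no p below 0.0286 is possible.

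The wider pathway was read from 8 lists with 107 genes, the members included, of which 96 passed the filter. At an adjusted p under 0.05 there were 0 of 96, and 21 were higher and 2 lower at an unadjusted p of 0.05 or less, where 13.9% and 2.61% of all entries were. The groups did not overlap for 8 genes that were higher and 1 that was lower, against 9.17% and 1.68% of all entries. The median log2 difference was 0.06, close to the 0.07 of all entries. The lists differed in their medians, from 0.0035 for superoxide and hydrogen peroxide removal to 0.20 for heme and iron, and these are given as descriptions with no test of the lists.

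Among the regulators, 12 of 15 tested genes had a higher mean (median 0.11). The small MAF genes encode the partners with which NRF2 binds DNA. MAFK was at 4.40, 4.35, 4.39 and 4.28 with the empty vector and at 4.63, 4.64, 4.56 and 4.66 with Siglec-XII. Its groups did not overlap, and the difference of 0.27 ± 0.06 (SE) had an adjusted p of 0.0797, the lowest of the 96 genes. MAFG had a difference of 0.27 (adjusted p = 0.228) and MAFF of 0.11 (adjusted p = 0.707), both with overlapping groups. CUL3, the ligase scaffold, differed by 0.14 (adjusted p = 0.268), its RING partner RBX1 by -0.09 (0.663), and GSK3B, a kinase that promotes NRF2 degradation independently of KEAP1, by 0.28 (0.199). The repressor BACH1 differed by 0.12 (adjusted p = 0.753) and SQSTM1, which sequesters KEAP1, by 0.14 (0.480). NFE2L1, a related factor, was the most abundant gene of the list, at 7.70 ± 0.10 and 7.78 ± 0.12 (SD, n = 4).

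The heme and iron list had 7 of 9 genes with a higher mean, 6 at an unadjusted p of 0.05 or less and 4 without overlap, where 13.9% and 9.17% of all entries were higher by these rules. These 4 were HMOX1, FTH1, FTL and SLC48A1. FTH1, the ferritin heavy chain that stores iron, was at 12.46, 12.58, 12.49 and 12.60 with the empty vector and at 12.77, 12.74, 12.65 and 12.75 with Siglec-XII, a difference of 0.20 ± 0.05 (SE, adjusted p = 0.136). The Siglec-XII samples were all above the empty vector samples by a narrow margin. FTL, the light chain, differed by 0.14 (adjusted p = 0.221), and SLC48A1, a heme transporter, by 0.20 (adjusted p = 0.238). Of the reductases that turn biliverdin into bilirubin, BLVRA differed by 0.21 (adjusted p = 0.260) and BLVRB by 0.20 (adjusted p = 0.235), and both overlapped between groups.

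Of 14 thioredoxin and peroxiredoxin genes, 11 had a higher mean (median 0.09). PRDX1, an abundant peroxiredoxin and NRF2 target, was at 9.57, 9.78, 9.66 and 9.77 with the empty vector and at 9.81, 9.85, 9.80 and 10.00 with Siglec-XII, a difference of 0.17 ± 0.06 (SE, adjusted p = 0.233) without overlap. PRDX6 differed by 0.18 (adjusted p = 0.247), TXNIP, an inhibitor of thioredoxin, by 0.20 (adjusted p = 0.205), and TXN, thioredoxin itself, by 0.05 (adjusted p = 0.676). In the glutathione list 15 of 21 tested genes had a higher mean (median 0.05). The cystine antiporter subunits SLC7A11 and SLC3A2 differed by 0.07 (adjusted p = 0.775) and 0.16 (adjusted p = 0.291), glutathione reductase GSR by 0.06 (adjusted p = 0.641) and GPX1 by 0.09 (adjusted p = 0.607). GSTP1, the most abundant glutathione transferase here, was at 10.08 ± 0.10 and 10.25 ± 0.13 (SD, n = 4), with an adjusted p of 0.302. None of these genes passed the adjusted test.

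The enzymes of quinone, carbonyl and drug metabolism had the most genes too low to test, 7 of 22. AKR1B10 and ALDH3A1, strong NRF2 targets in other cells, were among them. ALDH3A1 was listed at 0 in all samples, and AKR1B10 was listed at 0 in all but Siglec-XII replicate 3, where its log2 level was 0.11. UGDH, which makes UDP-glucuronate for conjugation, differed by 0.32 (adjusted p = 0.194), AKR1C3 by 0.20 (adjusted p = 0.459) and ALDH3A2 by 0.10 (adjusted p = 0.566). In the NADPH list, the malic enzyme ME1 was higher by 0.14 (adjusted p = 0.212) and the folate enzyme MTHFD2 differed by -0.18 (adjusted p = 0.172), each without overlap between groups. TKT, a transketolase, differed by 0.12 (adjusted p = 0.347).

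Outside these lists of enzymes, SLC6A6, a taurine transporter, was at 3.87, 4.11, 3.88 and 3.88 with the empty vector and at 4.26, 4.19, 4.50 and 4.57 with Siglec-XII. The groups did not overlap, and the difference of 0.44 ± 0.10 (SE) had an adjusted p of 0.0978. TRIM16 differed by 0.18 (adjusted p = 0.368) and ABHD4 by 0.17 (adjusted p = 0.265). Superoxide and peroxide removal had 4 genes higher and 4 lower. Extracellular superoxide dismutase SOD3 differed by -0.21 (adjusted p = 0.183), cytosolic SOD1 by -0.11 (adjusted p = 0.347), its copper chaperone CCS by 0.07 (adjusted p = 0.665), mitochondrial SOD2 by 0.02 (adjusted p = 0.907) and catalase, CAT, by -0.04 (95% interval from -0.23 to 0.14).

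**Figure D4:**
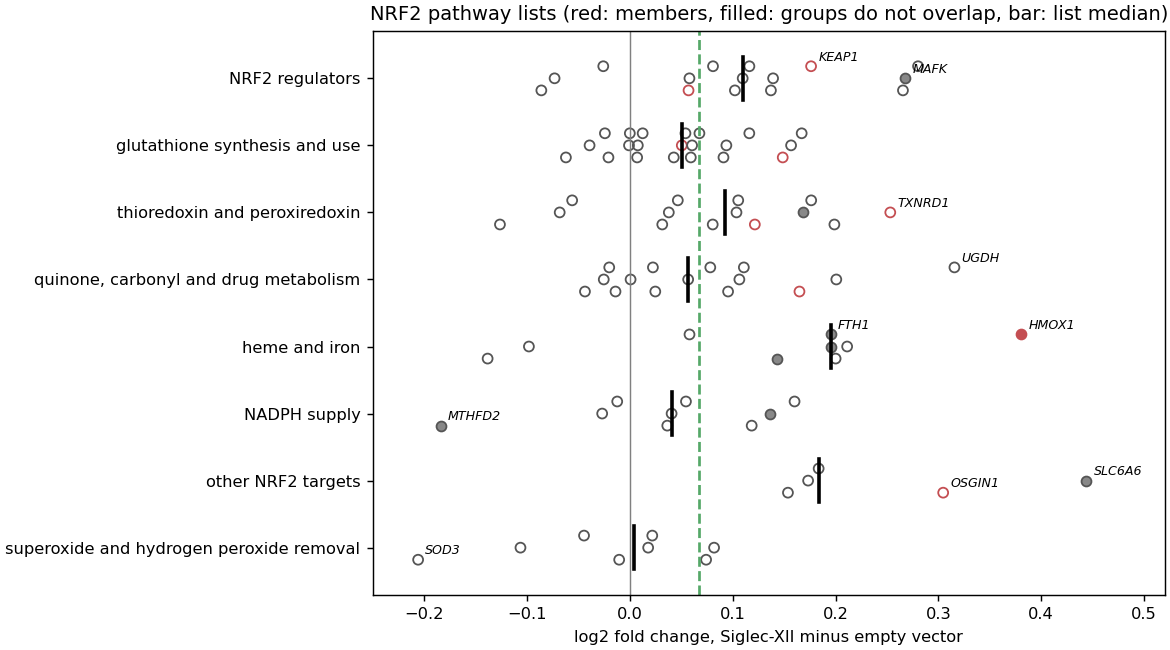
Log2 fold change, Siglec-XII minus empty vector, of the 96 tested genes in 8 lists of the NRF2 pathway, with the 9 members in red, filled points where the groups do not overlap and a black bar at each list's median. The dashed line marks the median of all entries tested, 0.07. HMOX1 and SLC6A6 lie farthest to the right.

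The pathway gene most like a member over the 8 samples was found by the root mean square (RMS) difference of log2 values centred on each gene's mean, among pathway genes with a mean of at least 5 TPM. The closest to NQO1 was PRDX6, with an RMS difference of 0.04, and the closest to SRXN1 was NQO1, also 0.04, where the median over 86 candidates was 0.14 in both cases. KEAP1 was closest to CUL3 (0.04, median 0.14), TXNRD1 to TRIM16 (0.07, median 0.16), HMOX1 to TXNRD1 (0.10, median 0.22) and GCLM to SQSTM1 (0.07, median 0.18). NFE2L2 was closest to HMOX2 (0.07, median 0.14) and GCLC to ABCC4 (0.08, median 0.13). The measure favours genes that vary little, and all points share the same 8 libraries.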

How the data were processed

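RNA from 8 samples was sequenced as paired 100 bp reads. The authors quantified the reads with kallisto (version 0.45.0 per the labels' processing notes, another version in the methods) against hg19 and deposited log2(TPM + 1) per gene and sample. The labels name a total RNA kit and the methods an mRNA kit. Back on the linear scale each column summed to 1000000, so depth is unknown and no count test was used. limma 3.58.1 (R 4.3.3, variance trend, Benjamini-Hochberg adjustment) compared the groups over the 15590 entries with at least 1 TPM in at least 4 samples, without further scaling. The script was tested on simulated data with 15590 genes, where 94% of 2-fold and 81% of 1.5-fold changes were recovered. Among the unchanged genes 7 were called. Changes as small as those of the members, at most 1.30-fold, were not simulated, nor were changes in genes as low as OSGIN1. The recovery for the members is therefore unknown. Ratios were compared by exact permutation tests (scipy 1.17.1), and figures were drawn with matplotlib 3.10.9. Positions are from GENCODE lifted to GRCh37 and promoters from RefSeq.

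The members, the pathway and marker lists and the rule for naming genes were chosen with earlier results of these data known. The rule allowed SIGLEC12, the members, 15 direct partners, and per list the 3 lowest unadjusted p and the highest level, and per member the pathway gene most like it. BLVRA, SLC48A1, AKR1B10 and ALDH3A1 were named after their values were seen. A gene that the rule names is not reported here. Alternatives were another pseudocount, filters, scalings, variance models, a replicate block and each sample left out.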

Additional observations from a re-analysis of the deposited data

Results flagged for a closer look

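NFE2L2 in empty vector replicate 2 had a log2(TPM + 1) of 6.11, while the other 3 empty vector samples ran from 5.89 to 5.92. Its gap to the nearest of them was 84.0% of the range of the group, above Dixon's 95% critical value for 4 samples. It was the only one of 22 screened groups (9 genes and 2 ratios in 2 groups of samples) to be marked, and chance marks about 1 in 20 groups.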

How the results depend on the processing

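All values are log2 TPM scale abundances of unknown read depth, and OSGIN1, at about 4 TPM, is the least precise of the 9 genes and could not be tested with a filter of 5 TPM on the mean. The count of 0 members and 0 pathway genes at an adjusted p under 0.05 was the same under 17 of 18 alternatives and became 2 and 2 (HMOX1 and TXNRD1) without empty vector replicate 2. The count over all entries, 101, was 51 with no filter, 58 with protein-coding entries only and 54 without the variance trend, and ran from 49 (without empty vector replicate 3) to 159 (without empty vector replicate 2) with 1 sample left out. Same-numbered samples had correlations of deviations of 0.04, 0.03, -0.07 and 0.06, and not every sample correlated best with its own number, so the numbers were not taken to pair the samples. The replicate block gave 69 entries, 0 members and 0 pathway genes. Neither ratio passed 0.05 under any of 10 alternatives each, but only the other pseudocount could have passed. With 1 sample left out or with the replicate block, the exact test has too few labellings to reach 0.05. These alternatives therefore show the size of the differences only. With 1 sample left out the differences ran from -0.16 to -0.06 for NFE2L2 to KEAP1 and from -0.17 to -0.03 for GCLC to GCLM. Log2 differences that changed sign were, after quantile normalization, NFE2L2 -0.0073, GCLC -0.029, GSR -0.015, HMOX2 -0.015 and SOD2 -0.045, and with equal upper quartiles NFE2L2 -0.0039, GCLC -0.0095, GSR -0.00024, TXN -0.015, HMOX2 -0.0018 and SOD2 -0.039. With the mitochondrial and 100 most abundant genes left out SOD2 was at -0.021. With 1 sample left out, GCLC ran from -0.010 to 0.094, BACH1 from -0.020 to 0.23 and SLC7A11 from -0.0058 to 0.10, each lowest without empty vector replicate 1. SOD2 ran from -0.020 (without Siglec-XII replicate 1) to 0.081 and was -0.00018 without empty vector replicate 4, where CAT, from -0.11, reached 0.0078. The cause was not tested.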
